A study of Homo sapiens with 12 samples.

Results

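RNA levels were followed for KMT2A (MLL), its fusion partner and its cofactors, 10 genes in all, in SHI-1 cells. In this acute myeloid leukemia cell line KMT2A is fused to MLLT4 (AF6, now AFDN). The 10 genes were KMT2A itself, its fusion partner MLLT4, the chromatin tethers MEN1 and PSIP1, the core subunits WDR5, ASH2L, RBBP5 and DPY30, and the histone methyltransferases DOT1L and KMT2D. They were picked by name, with no measured value in the rule, from 14866 genes listed in each library, and all 10 were among the 13502 genes tested. The study exposed the cells for 16 h to DMSO, to disulfiram at 0.3 µM with copper at 1 µM (DSF), to niclosamide at 5 µM (NSM), or to both drugs with copper at those doses (DSF + NSM). Each group held 3 RNA-seq libraries from independent experiments, 12 in all, and the purpose was to see what each drug and their combination do to the RNA of cells that depend on an MLL-fusion. All groups share the MLL-AF6 fusion and a single cell line, and the labels do not say whether the DMSO and NSM cultures also received copper. Reads were counted per gene, so RNA of the intact KMT2A and MLLT4 genes and RNA of the fusion were not told apart.

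KMT2A encodes a methyltransferase that places methyl groups on lysine 4 of histone H3 at active promoters, together with a core of WDR5, RBBP5, ASH2L and DPY30 that all methyltransferases of this family share. Menin (MEN1) and LEDGF (PSIP1) tie the amino-terminal part of MLL, which the fusion protein keeps, to chromatin, while DOT1L methylates lysine 79 of histone H3 and is drawn to the target genes of many MLL-fusion proteins. Afadin, the product of MLLT4, is a scaffold of cell junctions that binds nectins and actin, and in the fusion it lets MLL form dimers. KMT2D (MLL4) belongs to a sister complex that marks enhancers.

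The cells had the RNA of myeloid leukemia cells: all 10 myeloid markers looked for were listed, with summed normalized counts of 69228 to 78283 in DMSO and 35626 to 36861 in DSF + NSM, and 0 of 5 erythroid markers were listed. MPO (myeloperoxidase) made up that difference, at a mean of 58058 in DMSO and 21249 in DSF + NSM. The other 9 summed to 15066 to 15642 and to 13592 to 16556, with the means of 4 above and of 5 below DMSO. Of the T cell markers 3 of 5 were listed and summed to at most 192, of the epithelial ones 2 of 5 to at most 43.2, and of the fibroblast ones 2 of 5 to at most 147. The 5 B cell markers summed to 232 in NSM replicate 2 and 723 in DSF + NSM replicate 1, against 19.0 to 83.0 in the other 10 libraries, and MS4A1 was at 0 in all of them. NSM replicate 3 stood apart from its group, with Spearman correlations across genes of 0.939 and 0.950 with replicates 1 and 2, against at least 0.980 for every other pair within a group. The part of these libraries, and of the lower MPO level, in the results below was not tested beyond the values without each library that are given beside them. Library sums of the normalized counts, in M (mega), ranged from 13.96 to 14.38 under DMSO. With DSF they ranged from 14.9 to 15.3, with NSM from 16.5 to 17.5, and with both drugs from 22.7 to 25.6. When the libraries were instead scaled to equal sums, the median gene lay 0.75 lower on the log2 scale in DSF + NSM than in DMSO and 0.25 lower in NSM, so each direction is also given on that scale where it turned, with its distance from that median in the account of each gene.

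Of the 10 genes, 7 had a promoter entry in the RefSeq table (GRCh38.p14). The 250 bases before the start of the 5 that changed in DSF + NSM against DMSO are shown, since these are the genes whose levels the main comparison turns on, 3 of them upward and 2 downward. Where several starts were listed, the one closest to the start of the GENCODE 44 canonical transcript was used. Capitals mark a CCAAT box in MEN1 and an E-box (CACGTG) in KMT2D.
KMT2A, chr11:118436242-118436491, plus strand: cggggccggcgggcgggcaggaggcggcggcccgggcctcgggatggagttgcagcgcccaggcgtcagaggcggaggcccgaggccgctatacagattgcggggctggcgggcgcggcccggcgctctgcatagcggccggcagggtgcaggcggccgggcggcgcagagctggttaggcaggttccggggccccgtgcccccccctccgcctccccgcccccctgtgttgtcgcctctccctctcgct
MLLT4, chr6:167827385-167827634, plus strand: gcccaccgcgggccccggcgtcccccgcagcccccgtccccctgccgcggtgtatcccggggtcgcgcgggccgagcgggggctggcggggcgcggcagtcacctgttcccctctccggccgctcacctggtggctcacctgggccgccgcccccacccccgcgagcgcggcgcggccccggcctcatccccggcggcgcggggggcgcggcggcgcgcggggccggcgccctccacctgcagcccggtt
KMT2D, chr12:49060795-49061044, minus strand: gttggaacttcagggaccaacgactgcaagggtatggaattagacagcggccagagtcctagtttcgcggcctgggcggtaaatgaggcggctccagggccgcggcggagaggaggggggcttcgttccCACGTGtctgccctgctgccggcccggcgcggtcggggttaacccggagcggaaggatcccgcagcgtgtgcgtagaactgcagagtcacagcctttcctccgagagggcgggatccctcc
MEN1, chr11:64810552-64810801, minus strand: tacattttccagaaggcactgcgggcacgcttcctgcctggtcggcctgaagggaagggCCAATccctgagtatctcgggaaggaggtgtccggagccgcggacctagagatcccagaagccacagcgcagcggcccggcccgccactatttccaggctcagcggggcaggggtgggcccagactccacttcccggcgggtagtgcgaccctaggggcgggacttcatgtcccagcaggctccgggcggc
WDR5, chr9:134135832-134136081, plus strand: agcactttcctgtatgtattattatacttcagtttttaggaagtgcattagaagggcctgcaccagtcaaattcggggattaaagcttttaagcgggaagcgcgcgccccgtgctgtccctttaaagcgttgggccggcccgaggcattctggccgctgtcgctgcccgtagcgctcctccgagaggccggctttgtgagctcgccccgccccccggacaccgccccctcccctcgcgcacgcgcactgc
The MLLT4 window starts from the only RefSeq start in the table, which is 724 bases from the canonical GENCODE start. Guanine and cytosine made up 78.4% of the KMT2A window and 84.8% of the MLLT4 window, against 67.2% in MEN1, 65.6% in KMT2D, 60.8% in WDR5 and a median of 58.0% over all 35116 promoters of the table. Of 7 motifs searched on both strands, CCAAT was found once in MEN1, 191 bases before the start, and is present in 32.0% of all promoters. The E-box CACGTG was found once in KMT2D, 121 bases before the start, and in 6.34% of all promoters. The other motifs, an ETS site CCGGAAG (8.52% of promoters), an NRF1 site (1.03%), a C/EBP-ATF element TGATGCAA (0.772%), a heat shock element GAANNTTC (5.78%) and a CRE TGACGTCA (1.65%), were not matched in these windows or in those of PSIP1 and RBBP5.

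NSM alone changed 8 of the 10 genes: KMT2A, MLLT4, PSIP1, DPY30, DOT1L and KMT2D were higher than in DMSO and MEN1 and WDR5 were lower (limma, adjusted p under 0.05 over all genes tested). Among all genes tested 49.1% were called in that comparison, 25.4% higher and 23.7% lower. DSF alone changed 2 of 10, DOT1L and KMT2D, both upward, against 17.8% of all genes (11.9% higher, 5.95% lower). DSF + NSM changed 5 of 10 against DMSO, with KMT2A, MLLT4 and KMT2D higher and MEN1 and WDR5 lower, against 52.8% of all genes (28.3% higher, 24.5% lower). On the equal-sum scale the split was 3 higher and 2 lower for NSM, where 16.4% of all genes were higher and 33.5% lower. For DSF + NSM it was 0 higher and 7 lower, where 11.3% of all genes were higher and 56.3% lower. The median log2 change of the 10 genes was 0.13 for DSF, 0.56 for NSM and -0.13 with both drugs, where the median over all genes was 0.05, 0.01 and 0.03. The share called in DSF + NSM was close to that of all genes, and the number of calls is therefore no result about these genes. Leaving out 1 library at a time gave 0 to 3 calls for DSF and 6 to 8 for NSM, and 5 to 8 for the combination, the 8 without NSM replicate 3. Without the pair of libraries that held B cell markers 5 genes were called for the combination, 7 for NSM and 0 for DSF.

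**Figure D1:**
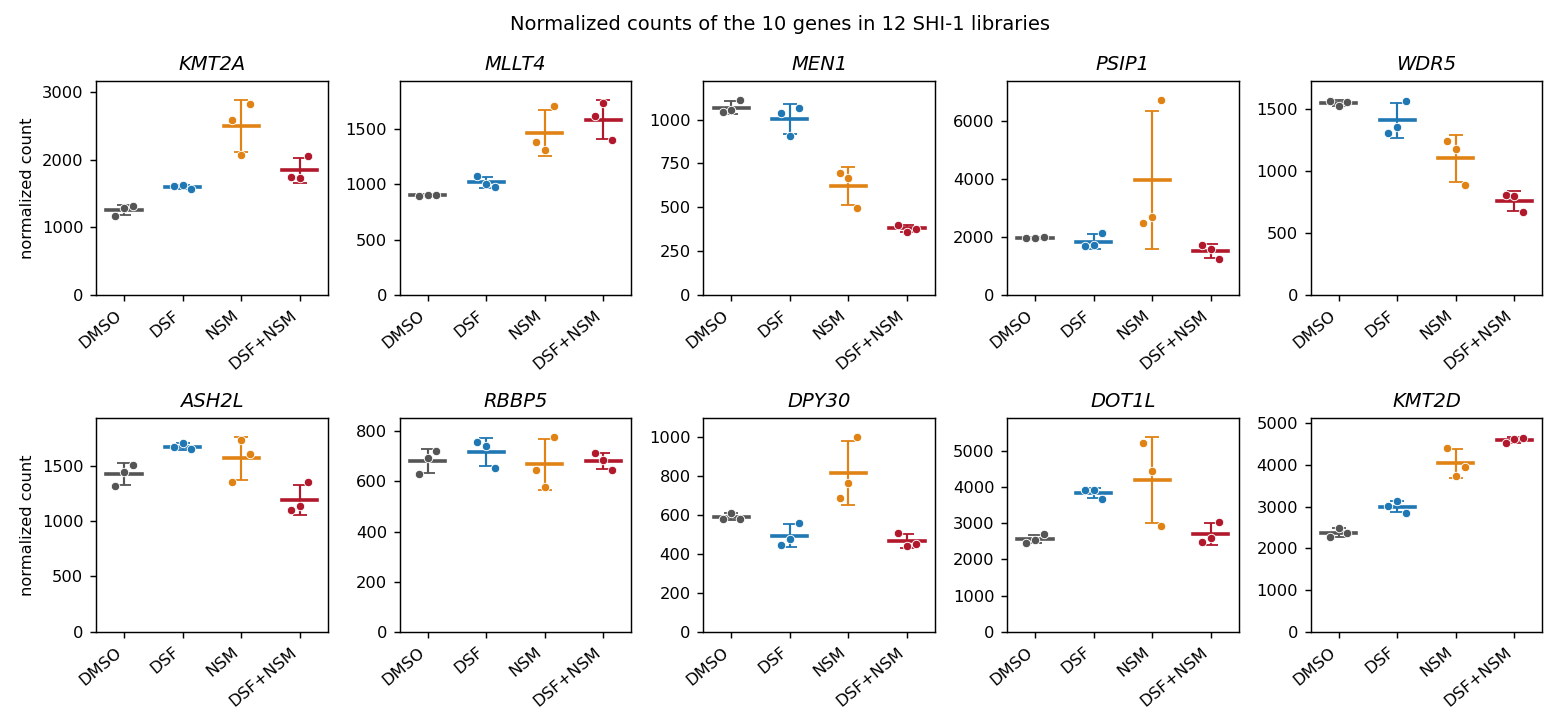
Normalized counts (vertical axes, each starting at 0) of the 10 genes in the 12 libraries, grouped by treatment on the horizontal axes; points are libraries, wide bars are means and error bars are SD (n = 3). MEN1 steps down from 1041 to 1109 in DMSO to 362 to 398 in DSF + NSM, and a single NSM library of PSIP1, at 6689, lies far above the others.

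**Figure D2:**
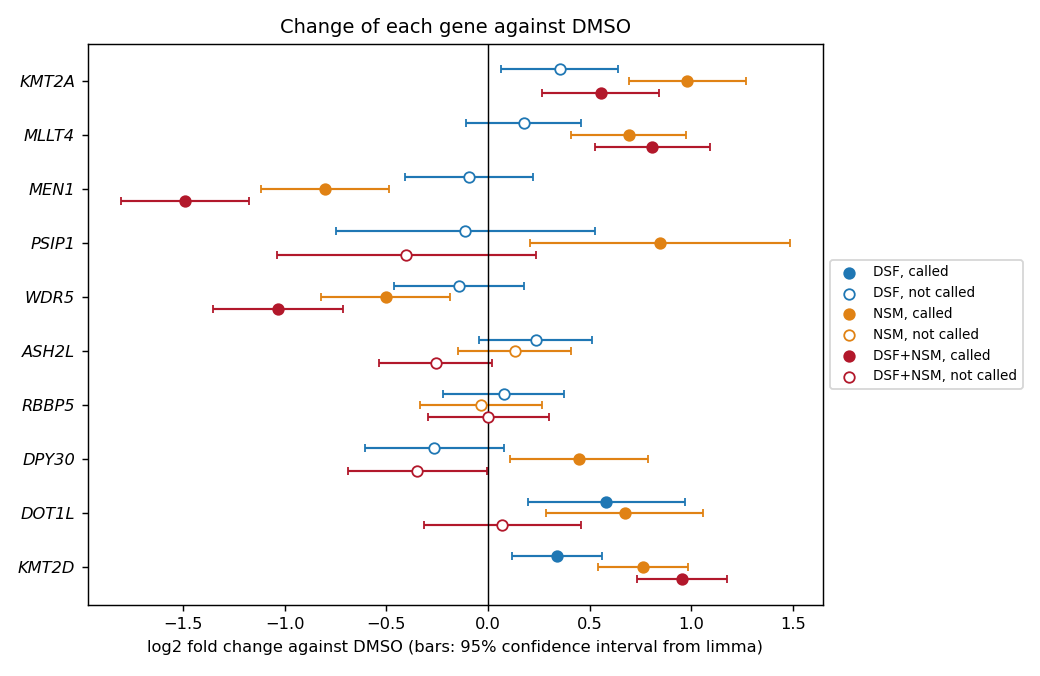
Log2 fold change against DMSO (horizontal axis) of each gene (vertical axis) for DSF, NSM and DSF + NSM, with the 95% confidence interval from limma; filled points were called at an adjusted p under 0.05 and open points were not. MEN1 and WDR5 lie to the left for NSM and DSF + NSM, and KMT2A, MLLT4 and KMT2D to the right, which on the equal-sum scale turns for KMT2A in DSF + NSM (-0.23).

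KMT2A (chr11:118436456-118526832, plus strand, 36 exons in the canonical transcript) had the largest log2 change in NSM among the 10 genes in the main fit. DOT1L exceeded it without NSM replicate 3 (0.91 against 0.89) and with library weights (0.81 against 0.72). At equal sums the changes of MEN1 (-1.07) and WDR5 (-0.77) were larger in size than that of KMT2A (0.71). By the fold of group means PSIP1, at 2.00, was level with KMT2A at 1.99. Normalized counts of KMT2A were 1166, 1284 and 1312 in DMSO, 1608, 1622 and 1567 in DSF, 2588, 2075 and 2817 in NSM, and 1747, 1727 and 2059 in DSF + NSM. All NSM libraries lay above all other libraries, and all DMSO libraries lay below the rest. KMT2A rose 1.97-fold in NSM (log2 change 0.98, 95% confidence interval 0.70 to 1.27, adjusted p = 7.56e-05). In DSF the change was 0.35 (0.07 to 0.64), which missed the threshold at an adjusted p of 0.0835 and passed it without NSM replicate 3 (0.0106), although the DSF libraries did not overlap those of DMSO. The DSF change also passed in a fit on DSF and DMSO alone (0.000395). In DSF + NSM KMT2A rose by 0.55 (0.27 to 0.84, adjusted p = 0.0036), but scaled to equal sums it lay at -0.23 (adjusted p = 0.159), which is 0.52 above the median gene on that scale. The combination was lower than NSM alone by a log2 difference of -0.43 (adjusted p = 0.0223), a call lost without NSM replicate 1 or without DSF + NSM replicate 1 or 2 (adjusted p 0.0501 to 0.0861), and in a fit on the compared groups alone (0.147). Against DSF alone it differed by 0.20 (adjusted p = 0.24), and on the equal-sum scale by -0.48 (0.00919), still 0.19 above the median gene. In GENCODE 44, KMT2A shares 5755 exonic bases with the unnamed gene ENSG00000285827 on the same strand and 317 with TTC36-AS1 on the other, and the library kit does not mark strand, so its counts may include or lack reads of these genes.

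MLLT4 (chr6:167826893-167972023, plus strand, 34 exons) shares no exonic base with another gene. The normalized counts of this gene were 892, 906 and 908 in DMSO, 1079, 1001 and 978 in DSF, 1380, 1316 and 1707 in NSM, and 1618, 1741 and 1399 in DSF + NSM. Every library with NSM lay above every library without it, and the NSM and DSF + NSM libraries overlapped. MLLT4 rose 1.62-fold in NSM (log2 change 0.69, 0.41 to 0.98, adjusted p = 0.000892) and 1.75-fold in DSF + NSM (0.81, 0.53 to 1.09, adjusted p = 0.000237). Scaled to equal sums, the change in DSF + NSM was 0.02 (adjusted p = 0.865), which is 0.78 above the median gene. With DSF alone the change was 0.18 (-0.11 to 0.46, adjusted p = 0.381, and 0.0462 in a fit on DSF and DMSO alone). The combination differed from NSM by 0.12 (-0.17 to 0.40, adjusted p = 0.504), which turned to -0.40 on the equal-sum scale (adjusted p = 0.0153, 0.08 above the median gene). It lay above DSF by 0.63 (adjusted p = 0.002), or -0.05 at equal sums, 0.62 above the median gene. No library with NSM fell back to the level of the DMSO libraries for this gene.

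MEN1 (chr11:64803510-64811294, minus strand, 10 exons), which encodes the tether menin, showed the largest change from DMSO of any of the 10 genes. Normalized counts of MEN1 were 1041, 1055 and 1109 in DMSO, 1037, 905 and 1064 in DSF, 697, 667 and 496 in NSM, and 398, 362 and 379 in DSF + NSM. The DMSO and DSF libraries overlapped, the NSM libraries lay below both, and the DSF + NSM libraries lay below those. MEN1 fell to 0.574 of the DMSO level in NSM (log2 change -0.80, -1.11 to -0.49, adjusted p = 0.000687) and to 0.356 in DSF + NSM (-1.49, -1.81 to -1.18, adjusted p = 4.3e-06). The fall in the combination kept its call without any single library (largest adjusted p 6.18e-05), and on the equal-sum scale it was -2.27, or 1.52 below the median gene. DSF alone gave -0.10 (-0.41 to 0.22, adjusted p = 0.693). The combination lay below NSM by a log2 difference of -0.69 (adjusted p = 0.00278, and 0.0574 in a fit on those groups alone) and below DSF by -1.39 (adjusted p = 1.65e-05). No other gene's exons overlap MEN1.

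PSIP1 (chr9:15464066-15510995, minus strand), which encodes LEDGF, the other tether, went a different way. For PSIP1 the normalized counts were 1963, 1972 and 1985 in DMSO, 1677, 1708 and 2127 in DSF, 2494, 2678 and 6689 in NSM, and 1706, 1575 and 1240 in DSF + NSM. The 3 DMSO libraries were almost level, NSM replicate 3 was far above everything else, and the combination lay below DMSO without overlap. PSIP1 rose in NSM by 0.85 (0.21 to 1.48, adjusted p = 0.0305), a call lost without any single DMSO library (adjusted p 0.0703 to 0.0726), and without NSM replicate 3 the change was 0.39. The call was also lost at equal sums (0.58, adjusted p = 0.109) and in a fit on NSM and DMSO alone (0.118). The change in DSF + NSM was -0.40 (-1.04 to 0.24, adjusted p = 0.271), and without NSM replicate 3 its adjusted p was 0.00665. In a fit on DSF + NSM and DMSO alone its adjusted p was 0.0146. The combination lay below NSM by a log2 difference of -1.25 (adjusted p = 0.0055, and 0.0504 in a fit on those groups alone) and by -0.79 without NSM replicate 3. With DSF alone PSIP1 differed from DMSO by -0.11 (adjusted p = 0.83). PSIP1 shares 71 exonic bases with SNAPC3 on the other strand.

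WDR5 (chr9:134135365-134159968, plus strand, 14 exons), the core subunit that holds the methyltransferase and the rest of the core together, followed MEN1. Counts of WDR5, normalized as above, were 1565, 1527 and 1560 in DMSO, 1306, 1355 and 1569 in DSF, 1248, 1178 and 888 in NSM, and 811, 798 and 670 in DSF + NSM. Every NSM library lay below every DMSO and DSF library, and every DSF + NSM library lay below those. WDR5 fell by 0.50 in NSM (-0.82 to -0.19, adjusted p = 0.0129, and 0.0513 in a fit on those groups alone) and to 0.488 of the DMSO level in DSF + NSM (-1.03, -1.35 to -0.72, adjusted p = 8.77e-05). The combination was lower than NSM by -0.53 (adjusted p = 0.0132), a call lost without the pair of libraries with B cell markers (0.0679) and in a fit on those groups alone (0.112). It was lower than DSF by -0.89 (adjusted p = 0.000437), while DSF alone gave -0.14 (adjusted p = 0.545). WDR5 shares 408 exonic bases with the antisense transcript WDR5-DT.

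RBBP5 (chr1:205086142-205122015, minus strand), another WD-repeat subunit of the core, passed the test in no comparison. RBBP5 had normalized counts of 628, 693 and 721 in DMSO, 758, 741 and 654 in DSF, 647, 579 and 776 in NSM, and 711, 684 and 647 in DSF + NSM. All 4 groups overlapped. The change was 0.08 (-0.22 to 0.38) with DSF, -0.04 (-0.34 to 0.26) with NSM and 0.00 (-0.30 to 0.30) with both, so changes within those intervals could not be told from none. At equal sums RBBP5 lay at -0.78 in DSF + NSM (adjusted p = 0.000242), 0.03 below the median gene, and at -0.02 in DSF, 0.03 above it. DSF + NSM against NSM gave 0.04 and turned to -0.48 at equal sums (adjusted p = 0.00963), where the median gene lay at -0.48.

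ASH2L (chr8:38105493-38144076, plus strand), which with RBBP5 activates the methyltransferase, had normalized counts of 1319, 1444 and 1511 in DMSO, 1670, 1705 and 1650 in DSF, 1358, 1733 and 1611 in NSM, and 1098, 1136 and 1350 in DSF + NSM. The DSF libraries lay above DMSO and the combination mostly below it, with 1 overlapping library. None of the changes from DMSO passed the test in the main fit: 0.24 with DSF (adjusted p = 0.227), 0.13 with NSM (0.414, and -0.14 at equal sums, 0.11 above the median gene) and -0.26 with both (0.109). The last passed without NSM replicate 3 or DSF + NSM replicate 3 (adjusted p 0.0414 and 0.0416). In fits on the compared groups alone the DSF change passed (0.00877) and the change with both drugs did not (0.0569). The combination was lower than DSF by -0.49 (adjusted p = 0.00792) and lower than NSM by -0.39 (0.0295), the latter lost without NSM replicate 2 or DSF + NSM replicate 1 or 2 (0.0995 to 0.112), without the pair of libraries with B cell markers (0.252) and in a fit on those groups alone (0.179). ASH2L shares 338 exonic bases with STAR on the other strand.

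DPY30 (chr2:31867809-32039805, minus strand), the small dimeric subunit that binds ASH2L, had normalized counts of 582, 612 and 581 in DMSO, 447, 476 and 562 in DSF, 687, 765 and 1000 in NSM, and 506, 442 and 450 in DSF + NSM. It was highest in NSM and lower than DMSO in every library with DSF. DPY30 rose in NSM by 0.45 (0.11 to 0.79, adjusted p = 0.0319), a call lost without any 1 of the DMSO libraries (0.0659 to 0.0848). At equal sums the change was 0.18 (adjusted p = 0.365), and the call was also lost without the libraries with B cell markers (0.0571) and in a fit on NSM and DMSO alone (0.0902). The changes in DSF (-0.26, adjusted p = 0.269) and in DSF + NSM (-0.35, -0.69 to -0.01, adjusted p = 0.0804) missed the threshold, the second passing without NSM replicate 3 (0.0101). Both passed in fits on the compared groups alone (0.0236 and 0.0148). The combination lay below NSM by a log2 difference of -0.79 (adjusted p = 0.00189). Of the core, WDR5 was lower and DPY30 higher in NSM, the latter with the losses just given, and ASH2L and RBBP5 were not called. DPY30 shares 1385 of its 2725 exonic bases with MEMO1 on the same strand in GENCODE 44, and its values are uncertain to that extent.

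DOT1L (chr19:2163933-2232578, plus strand, 28 exons), the H3K79 methyltransferase, rose with each drug alone, with no call for the combination. For DOT1L the normalized counts were 2466, 2528 and 2697 in DMSO, 3920, 3908 and 3676 in DSF, 5232, 4459 and 2915 in NSM, and 2476, 2588 and 3038 in DSF + NSM. The DSF libraries lay well above DMSO, the NSM libraries were spread wide with replicate 3 lowest, and the combination overlapped DMSO. DOT1L rose by 0.58 in DSF (0.19 to 0.97, adjusted p = 0.0415) and by 0.67 in NSM (0.29 to 1.06, adjusted p = 0.00773). The DSF call was lost without any single DMSO or DSF library and without DSF + NSM replicate 1 or 2 (adjusted p 0.0545 to 0.135), and without the libraries with B cell markers (0.0661). It held in a fit on DSF and DMSO alone (1.43e-06) and with library weights (1.3e-08). At equal sums neither call held, at 0.48 in DSF (adjusted p = 0.0974) and 0.40 in NSM (0.0982), and the NSM call was lost in a fit on NSM and DMSO alone (0.0554). The change in DSF + NSM was 0.07 (-0.32 to 0.46, adjusted p = 0.762), or -0.71 at equal sums (0.00533), 0.04 above the median gene. The combination lay below DSF by -0.51 (adjusted p = 0.0347), a call lost without any single DSF library or without DSF + NSM replicate 1 or 2 (0.0664 to 0.111), and without the libraries with B cell markers (0.124). It lay below NSM by -0.60 (adjusted p = 0.0184), lost without NSM replicate 1 or 2 or DSF + NSM replicate 1 or 2 (0.0577 to 0.0722), without the libraries with B cell markers (0.154) and in a fit on those groups alone (0.116). DOT1L shares 764 and 529 exonic bases with ENSG00000267122 and PLEKHJ1 on the other strand.

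KMT2D (chr12:49018975-49060794, minus strand, 55 exons), the MLL4 methyltransferase, rose with every treatment. KMT2D had normalized counts of 2271, 2488 and 2368 in DMSO, 3020, 3134 and 2857 in DSF, 4414, 3747 and 3961 in NSM, and 4530, 4627 and 4656 in DSF + NSM. The 4 groups stood in that order with no overlap between any pair of them. KMT2D rose by 0.34 in DSF (0.12 to 0.56, adjusted p = 0.0384), by 0.76 in NSM (0.54 to 0.98, adjusted p = 7.11e-05) and by 0.96 with both drugs (0.73 to 1.18, adjusted p = 8.79e-06). The DSF call was lost without the same 8 libraries as that of DOT1L (adjusted p 0.0545 to 0.158), without the libraries with B cell markers (0.0623) and under all 3 other scalings (0.0603 to 0.122). It held in a fit on DSF and DMSO alone (0.000369) and with library weights (3.49e-05). At equal sums the change in DSF + NSM was 0.17 (adjusted p = 0.155), 0.92 above the median gene. The combination lay above DSF by 0.62 (adjusted p = 0.000443, or -0.07 at equal sums, 0.61 above the median gene). Its difference from NSM was 0.19 (-0.03 to 0.41, adjusted p = 0.153), or -0.32 at equal sums (0.0178), 0.16 above the median gene. KMT2D shares 661 exonic bases with ENSG00000288710 on the same strand and 267 with DDN-AS1 on the other.

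Whether the drugs add up was tested as the change in DSF + NSM minus the sum of the DSF and NSM changes, all on the log2 scale. It was below 0 for all 10 genes in the main scaling and passed the test for 4 of them, against 26.1% of all genes tested, 12.1% higher and 14% lower. DOT1L had the largest shortfall, -1.18 (-1.73 to -0.64, adjusted p = 0.00466): single-drug changes of 0.58 and 0.67 sum to 1.25, and the combination reached 0.07. KMT2A followed at -0.78 (-1.18 to -0.38, adjusted p = 0.0089), with a sum of 1.33 and a combined change of 0.55. Both calls held without any single library, the largest adjusted p being 0.0162 for DOT1L and 0.0294 for KMT2A. ASH2L had an interaction of -0.63 (adjusted p = 0.023), lost without any of 7 libraries (DMSO, DSF or DSF + NSM replicates 1 and 2, and NSM replicate 2, 0.0522 to 0.0676) and without the pair with B cell markers (0.127). For MEN1 the interaction of -0.59 went the same way as the fall itself (sum -0.90, combination -1.49), but its adjusted p was 0.0499 and it was lost without any library other than NSM replicate 3 (0.0587 to 0.111), and without the pair with B cell markers (0.138). MLLT4 and KMT2D were close to the sum, at -0.06 (-0.46 to 0.34) and -0.15 (-0.46 to 0.17), and with library weights MLLT4 turned to 0.14 and RBBP5 from -0.04 to 0.16. PSIP1 (-1.14, adjusted p = 0.0622), DPY30 (-0.53, 0.0977) and WDR5 (-0.39, 0.191) missed the threshold, and without NSM replicate 3 PSIP1 and WDR5 passed it at -0.68 (0.0051) and -0.54 (0.00696). At equal sums 9 of the 10 were called, all lower, where the median gene itself lay at -0.40 and 6.75% of all genes were higher and 28.6% lower.

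**Figure D3:**
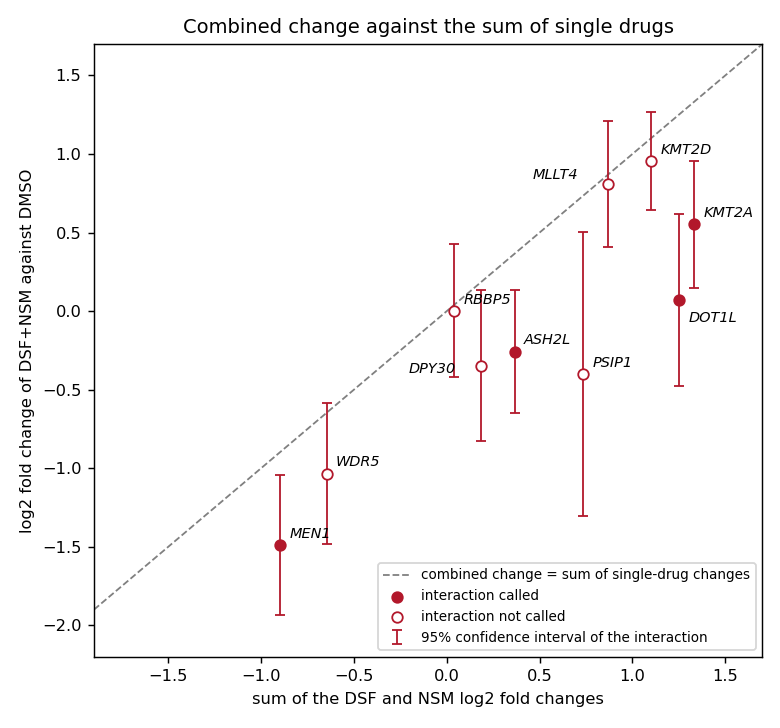
Log2 change in DSF + NSM against DMSO (vertical axis) plotted against the sum of the DSF and NSM changes (horizontal axis) for each gene; the dashed line marks equality, bars are the 95% confidence interval of the interaction, and filled points were called. All 10 points lie on or below the line in this scaling, with DOT1L and KMT2A well under it and MLLT4, KMT2D and RBBP5 near it.

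Direct comparison of the treated groups gave calls for 6 of 10 genes between DSF + NSM and DSF (2 higher, 4 lower, against 43.1% of all genes, 21.7% higher and 21.4% lower), 7 of 10 between DSF + NSM and NSM (0 higher, 7 lower, against 38.6%, 20.3% higher and 18.3% lower) and 6 of 10 between NSM and DSF (5 higher, 1 lower, against 44.4%, 21% higher and 23.4% lower). At equal sums these became 0 higher and 8 lower (7.22% and 53.8% of all genes), 0 higher and 10 lower (9.72% and 44.9%), and 4 higher and 2 lower (14.1% and 30.4%), so most calls over all genes were also on the lower side. Without DSF + NSM replicate 1 or 2, or without the pair of libraries with B cell markers, the count between DSF + NSM and NSM was 4. NSM lay above DSF by 0.63 for KMT2A (adjusted p = 0.00244), 0.52 for MLLT4 (0.00704), 0.71 for DPY30 (0.0033) and 0.43 for KMT2D (0.00523, and 0.0614 at equal sums), and below it by -0.70 for MEN1 (0.0022). PSIP1 was 0.96 higher in NSM than in DSF (0.0194), a call lost without DSF replicate 1 or 2 (0.0631 and 0.061) and in a fit on those groups alone (0.0901), and 0.50 higher without NSM replicate 3. For DOT1L the difference between the drugs was 0.09 (-0.30 to 0.48, adjusted p = 0.7, or -0.08 at equal sums, 0.13 above the median gene), and 0.33 without NSM replicate 3 (0.0139).

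Ratios between genes of the same library do not depend on how libraries are scaled. MEN1 RNA was 0.893, 0.822 and 0.846 of KMT2A RNA in the DMSO libraries, 0.645, 0.558 and 0.679 in DSF, 0.269, 0.321 and 0.176 in NSM, and 0.228, 0.21 and 0.184 in DSF + NSM (normalized counts, not corrected for length). The ratio was lower in every treated library than in every DMSO library, and lower in every library with NSM than in every library with DSF alone. WDR5 over RBBP5, a ratio within the shared core, was 2.49, 2.2 and 2.16 in DMSO and 1.14, 1.17 and 1.04 in DSF + NSM, with no overlap, while in NSM it was 1.93, 2.03 and 1.14. DPY30 over RBBP5 was 0.927, 0.883 and 0.807 in DMSO, 1.06, 1.32 and 1.29 in NSM and 0.711, 0.647 and 0.694 in DSF + NSM, so the NSM and DSF + NSM libraries fell on opposite sides of DMSO. MLLT4 over KMT2A was 0.765, 0.706 and 0.692 in DMSO, 0.533, 0.634 and 0.606 in NSM, and 0.926, 1.01 and 0.68 in DSF + NSM. It was lower in NSM than in DMSO, and in DSF + NSM replicate 3 lay just below the DMSO values while the other 2 lay above them. KMT2D over KMT2A was 1.95, 1.94 and 1.8 in DMSO and 2.59, 2.68 and 2.26 in DSF + NSM. DOT1L over KMT2A was 2.12, 1.97 and 2.06 in DMSO, 2.44, 2.41 and 2.35 in DSF, 2.02, 2.15 and 1.03 in NSM and 1.42, 1.5 and 1.48 in DSF + NSM. DSF lay above DMSO and the combination below it, while the NSM libraries overlapped DMSO and reached below the combination. With 3 libraries a group these ratios are given as a description.

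Divided by the length of the canonical transcript, the levels of the 10 genes in DMSO ran from 860 ± 25.5 normalized counts per kb for DPY30 down to 75.5 ± 4.67 for KMT2A (SD, n = 3). Between them came PSIP1 at 590 ± 3.31, WDR5 at 491 ± 6.54, ASH2L at 488 ± 33.4, MEN1 at 394 ± 13.2, DOT1L at 335 ± 15.6, RBBP5 at 156 ± 10.9, MLLT4 at 116 ± 1.12 and KMT2D at 115 ± 5.27. WDR5 and ASH2L, and likewise MLLT4 and KMT2D, did not differ beyond their spread. KMT2A was last in all 4 groups, at 96.3 ± 1.72 with DSF, 150 ± 22.9 with NSM and 111 ± 11.2 with both, although in NSM it overlapped RBBP5 at 153 ± 22.9. MEN1 was the fifth in DMSO and the ninth in DSF + NSM at 140 ± 6.59, below RBBP5 at 156 ± 7.36, MLLT4 at 203 ± 22.2 and KMT2D at 223 ± 3.2. WDR5 was the fifth in the combination at 241 ± 24.7, and DPY30 and PSIP1 stayed at the top at 677 ± 50.4 and 451 ± 71.9. These levels rest on 1 transcript length per gene, and other isoforms would change the order.

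**Figure D4:**
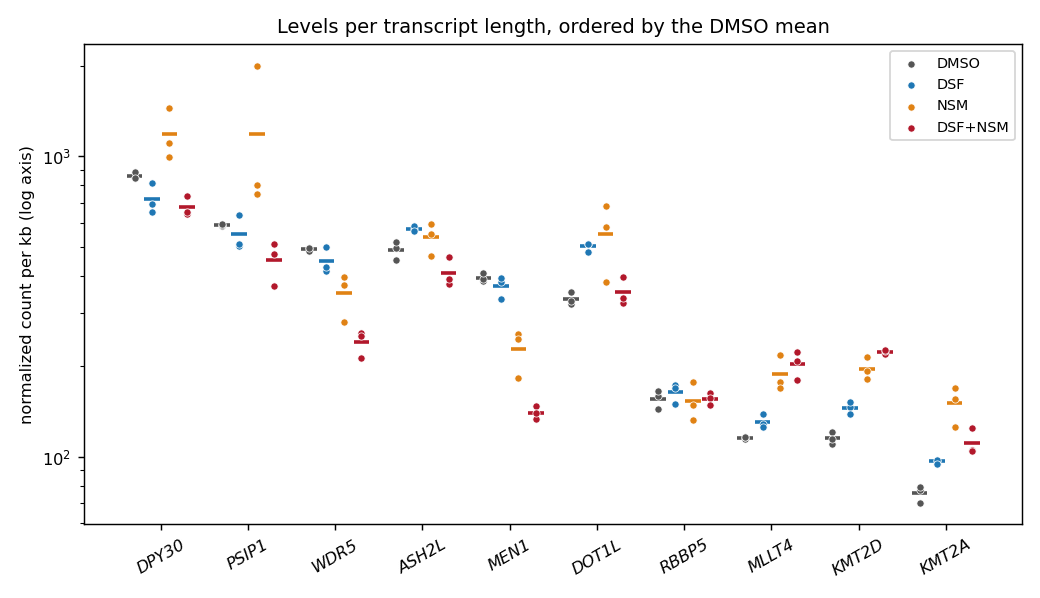
Normalized counts per kb of canonical transcript (vertical axis, log scale) for each gene (horizontal axis, ordered by the DMSO mean) in the 4 groups; points are libraries and bars are means (n = 3). DPY30 has the highest and KMT2A the lowest mean in each group, and in DSF + NSM the 3 MEN1 points lie below those of RBBP5.

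Over the 12 libraries the genes fell into a few shapes, described here by Pearson correlations of log2(normalized count + 1). MEN1 and WDR5 ran together at 0.972, PSIP1 and DPY30 at 0.933, and MLLT4 and KMT2D at 0.928, while MLLT4 and MEN1 were opposed at -0.925. KMT2A correlated at 0.786 with KMT2D, 0.770 with MLLT4 and 0.028 with RBBP5. The PSIP1 and DPY30 pair shares the high NSM replicate 3, and all pairs share the 4 groups, the libraries and their scaling. In the promoter windows above, WDR5 and MLLT4 matched no searched motif, so the search could not find a motif shared with MEN1 or KMT2D. Among 10795 genes with a mean normalized count of at least 50, those most like KMT2A were SETD5 (0.989), KLF7 (0.983), GATAD2B (0.980), TFG (0.977) and NCOA6 (0.976). SETD5, which encodes a SET-domain protein, averaged 2649 normalized counts in DMSO, 3337 with DSF, 5516 with NSM and 3893 with the combination. NCOA6, a subunit of the KMT2D complex, averaged 778, 1116, 2530 and 1299 in that order. Those most like MLLT4 were CIR1, TMEM57 and GADD45A (0.984 each), CCDC174 (0.981) and C2orf49 (0.980), of which GADD45A, a stress-induced growth arrest gene, averaged 685, 933, 2145 and 2661 over the groups in the same order.

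The wider machinery was read in lists of complexes, with genes named as those that moved most in each list. Some lists hold members of the 10 genes and some genes stand in several lists, so the counts are not separate from each other. The counts stand beside 17.8% of all genes called with DSF, 49.1% with NSM and 52.8% with both drugs. At equal sums they stand beside 16.4% higher and 33.5% lower for NSM, and 11.3% higher and 56.3% lower for the combination. Of 7 H3K4 methyltransferases, KMT2A and KMT2D among them, 5 rose in NSM and 0 fell (median log2 change 0.76, all genes 0.01), or 5 and 1 at equal sums. In DSF + NSM 4 rose and 1 fell (0 and 2 at equal sums). KMT2C, the sister of KMT2D, had normalized counts of 912, 1029 and 1086 in DMSO and 2127, 2068 and 2227 in DSF + NSM and rose by 1.09 (adjusted p = 5.23e-05). SETD1B went the other way, from 664, 726 and 762 to 398, 391 and 470 (-0.77, adjusted p = 0.000271). KMT2E rose in NSM by 1.17 (adjusted p = 0.00503) on values of 2503, 2239 and 6180, the last being replicate 3. All 4 subunits particular to the KMT2C and KMT2D complexes were called in NSM and in DSF + NSM, 2 up and 2 down each time, where 49.1% and 52.8% of all genes were called. At equal sums the split was 1 and 2 for NSM and 0 and 2 for DSF + NSM. PAXIP1 fell from 686, 670 and 687 in DMSO to 221, 247 and 237 in DSF + NSM (-1.53, adjusted p = 3.67e-06), and PAGR1, its binding partner, fell by 0.98 in NSM (adjusted p = 0.000183). NCOA6 rose by 1.67 in NSM (adjusted p = 1.11e-05) and by 0.74 in DSF + NSM (0.0033), or -0.05 at equal sums, 0.70 above the median gene.

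Of 6 genes for subunits of the MLL1 and MLL2 complexes or their protease, MEN1 and PSIP1 among them, 3 rose and 2 fell in NSM (all genes 25.4% and 23.7%), or 1 and 2 at equal sums. In DSF + NSM 1 rose and 1 fell (all genes 28.3% and 24.5%), or 0 and 4 at equal sums. TASP1, the protease that cleaves MLL, had normalized counts of 101, 128 and 143 in DMSO and 54.7, 57.6 and 85.0 in NSM and fell by 0.92 (adjusted p = 0.00285). KAT8, a histone H4 acetyltransferase, rose by 1.10 in NSM (adjusted p = 0.000182). In the SETD1 list 3 of 5 rose in NSM (2 higher and 0 lower at equal sums) and in DSF + NSM (0 higher and 2 lower at equal sums). BOD1L1 led these rises, and its NSM values of 3536, 3405 and 7224 again had replicate 3 far above the others. In the H3K4 demethylase list of 6, 2 rose and 1 fell in NSM (1 and 2 at equal sums). With both drugs 2 rose and 2 fell (1 and 4 at equal sums). KDM5A, which removes the H3K4 trimethyl mark, rose by 1.57 in DSF + NSM (adjusted p = 4.66e-07) on values of 3284, 3357 and 2822 against 1013, 1087 and 1087 in DMSO. KDM1A (LSD1) fell by 0.74 (adjusted p = 0.000339).

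Of 12 genes of the super elongation complex, whose factors many MLL-fusion proteins recruit, 2 rose and 1 fell in DSF. In NSM 3 rose and 0 fell (1 and 2 at equal sums), and in DSF + NSM 3 rose and 1 fell (1 and 6 at equal sums). The shares of all genes called were 17.8%, 49.1% and 52.8%. EAF1, which binds ELL, rose by 1.63 in NSM (adjusted p = 1.44e-05) and by 1.76 in DSF + NSM (5e-06). MLLT1 (ENL) fell in DSF + NSM from 2822, 2818 and 2983 to 1569, 1585 and 1613 (-0.85, adjusted p = 0.00172). In the DOT1L complex list of 7, which holds DOT1L itself, 2 rose and 1 fell in NSM (1 and 3 at equal sums). With both drugs 0 rose and 2 fell (0 and 7 at equal sums). TRRAP, which is counted with that complex, fell by 0.86 in DSF + NSM (adjusted p = 0.000237), and MLLT10 (AF10), a binding partner of DOT1L, had NSM values of 812, 862 and 1744 against 491, 577 and 465 in DMSO (1.07, adjusted p = 0.00429). Of 6 subunits of the PAF1 complex, 1 rose and 2 fell in NSM (0 and 2 at equal sums). With both drugs 2 rose and 2 fell (0 and 4 at equal sums). In the main scaling the calls were 3 and 4 of 6 beside 49.1% and 52.8% of all genes. WDR61 fell by 1.45 in NSM (adjusted p = 1.43e-05) and by 0.91 in DSF + NSM (0.000346), and PAF1 rose by 0.81 in DSF + NSM (0.002).

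MLLT4 was set beside 28 other genes found as MLL fusion partners, 27 of them tested. In DSF 8 rose and 1 fell, in NSM 15 rose and 2 fell (9 and 5 at equal sums), and in DSF + NSM 10 rose and 3 fell (2 and 12 at equal sums). The medians were 0.21, 0.77 and 0.40 against 0.05, 0.01 and 0.03 for all genes. MLLT11 had the largest rise, from 9.7, 13.6 and 11.8 in DMSO to 57.8, 55.7 and 43.6 in DSF (log2 change 2.07, adjusted p = 0.000506) and 112, 108 and 129 in DSF + NSM (3.22, 2e-06). DCP1A, an mRNA decapping factor, rose by 1.64 in NSM (3.89e-07), and CASC5 (KNL1), a kinetochore gene, fell by 1.01 in DSF + NSM (0.00437). Of 15 tested binding partners of afadin, 2 rose in DSF, 4 rose and 2 fell in NSM, and 7 rose and 2 fell in DSF + NSM. For DSF + NSM 3 rose and 7 fell of 14 tested at equal sums. Without the libraries with B cell markers 4 rose and 1 fell of 12 tested, so fewer genes entered that count. F11R (JAM-A) rose by 1.50 in NSM (2.68e-06), CTNNA1 (alpha-catenin) rose by 1.09 in DSF (8.43e-05), and PVRL1 (nectin-1) fell by 1.30 in DSF + NSM (1.79e-05). PVRL4 (nectin-4) stood at 0.9, 0 and 2 in DMSO and at 38.5, 30.9 and 26.6 in DSF + NSM, so no fold is given. In DSF it stood at 3.5, 4 and 2.2, and in NSM at 2.9, 1 and 1.3. It passed the filter of 10 in 3 libraries only through DSF + NSM, so its place among the 7 rises there is no result. EPHB2 fell by 2.22 in NSM (adjusted p = 0.000598), from a mean of 45.2 ± 7.08 to 10.2 ± 7.15 (SD, n = 3). Without NSM replicate 3 the DSF count rose from 1 to 5 of 7 for the H3K4 methyltransferases. It also rose from 0 to 3 for the PAF1 complex and from 9 to 13 for the other fusion partners, and stayed at 1 for the DOT1L complex. In DSF + NSM 16 of the other fusion partners then rose and 5 fell. The share over all genes without that library is not given, so these counts are no result about the lists.

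**Figure D5:**
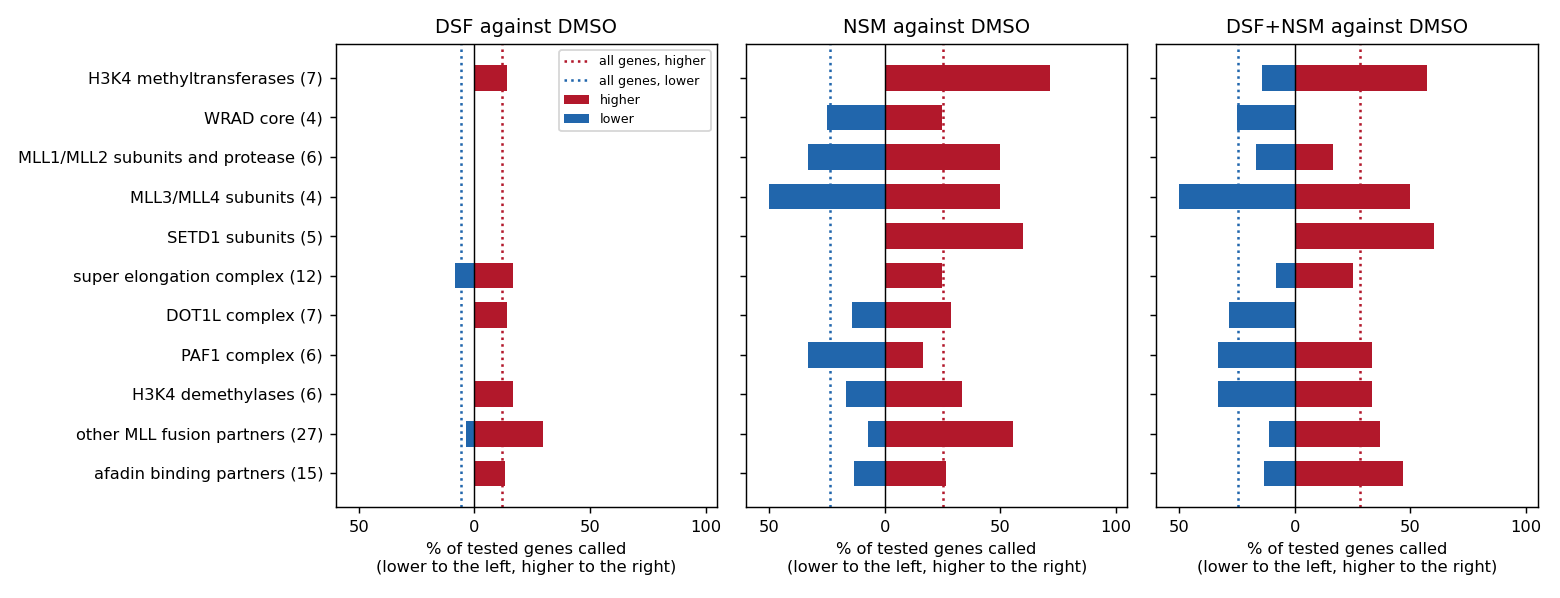
Percentage of tested genes called higher (right of 0) or lower (left of 0) than DMSO in each list (vertical axis, number tested in brackets) for DSF, NSM and DSF + NSM; dotted lines are the percentages over all genes. In NSM 5 of 7 H3K4 methyltransferases and 15 of 27 other fusion partners lie on the higher side, which on the equal-sum scale become 5 and 9. For DSF + NSM these are 4 and 10, which on the equal-sum scale become 0 and 2.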

How the data were processed

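RNA of SHI-1 cells was prepared with TruSeq RNA v2 libraries, a kit that does not mark strand. The deposited values are normalized counts per gene, a signal that the authors made with DESeq2 and that is never negative; the file headers name 24 libraries, of which 12 were analysed here. The submitters' processing notes name bcl2fastq 2.19, Trimmomatic, Bowtie2, Picard and featureCounts with hg38, whereas the study's methods name STAR and Salmon, so the aligner and counter remain unclear. Only 32.5 to 33.0% of values were whole multiples of the smallest recurring step (tolerance 0.01), so no count test was run. As a rough estimate that takes that step as 1 read, the libraries held 10.2 to 19.0 M reads (M for mega).

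Values were tested as log2(normalized count + 1) with limma 3.58.1 in R 4.3.3 (trend, robust empirical Bayes, group means only, all 12 libraries sharing an estimate of the spread), for the 13502 genes that reached 10 in 3 or more libraries. Adjusted p-values are Benjamini-Hochberg over all genes, with calls under 0.05, for 7 comparisons. Fold changes are on the log2(value + 1) scale, which understates the change of low genes. On simulated data for NSM against DMSO (10 draws of 12542 to 12544 genes), 88.9% of 2-fold and 37.1% of 1.5-fold changes were recovered, 4.32% of calls being false. The simulation changed 200 genes, far fewer than were called in the data, and gave every gene the same noise setting. Its rates therefore need not hold for these libraries. The 10 genes and all gene lists were chosen with earlier results of these data known. Genes named from lists are those with the largest called rise or fall in each comparison with DMSO, and those alike to KMT2A or MLLT4 the 5 highest correlations. Alternatives covered scaling, pseudocounts of 0.1 and 10, filters, library weights, fits on single comparisons, leaving out each library in turn and a block for the replicate number; leaving out 2 libraries with B cell markers was added after seeing the data. Positions are from GENCODE 44 (GRCh38) and promoters from RefSeq. Replicates carry only a number in the labels, and the paper describes them as independent experiments.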

Additional observations from a re-analysis of the deposited data

Results flagged for a closer look

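For 4 of the 10 genes the effect of NSM in the presence of DSF differed from its effect alone, by the interaction term in limma. Among all genes tested 26.1% were called for that term, 12.1% higher and 14% lower. The difference (with DSF minus without) was -1.18 on the log2 scale for DOT1L (adjusted p = 0.00466), -0.78 for KMT2A (0.0089), -0.63 for ASH2L (0.023) and -0.59 for MEN1 (0.0499). DOT1L rose by 0.67 with NSM alone and was lower by -0.51 when NSM was added to DSF, whereas for MEN1 both effects were falls, -0.80 without DSF and -1.39 with it. All 3 libraries of each group entered these tests, and the calls of ASH2L and MEN1 did not hold without several single libraries, as given above.

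PAX5, a B cell transcription factor outside the comparisons made here, stood at 160.9 normalized counts in NSM replicate 2 and at 471.3 in DSF + NSM replicate 1, against 1.29 to 15.5 in the other 10 libraries. CD79A and EBF1 were at 92.0 and 83.3 in DSF + NSM replicate 1. Their part in the changes of the 10 genes was not tested beyond the fits without these libraries.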

How the results depend on the processing

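Over 760 values of the 10 genes under other settings, 667 kept direction and side of the threshold, 36 lost the call, 37 gained it and 20 changed sign; leaving out 1 library at a time gave 756, 57, 13 and 14 of 840. The number of genes called for DSF was 1 after rescaling by the median of ratios or a trimmed mean, 0 at equal sums, 6 with only the groups compared in the fit, 7 with library weights and 0 without the B cell marker libraries. For NSM it was 5 at equal sums and 4 with only the groups compared, for DSF + NSM 8 with library weights, and for DSF + NSM against NSM 1 with only the groups compared and 4 without the B cell marker libraries. The interaction count was 9 at equal sums, 7 with library weights and 2 without the B cell marker libraries. Leaving out single libraries gave 0 to 3 calls for DSF, 5 to 8 for DSF + NSM, 4 to 7 for DSF + NSM against NSM and 2 to 6 for the interaction. Shares of all genes called are given only for the main setting and equal sums. Counts under the other settings are therefore no result about the 10 genes.

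At equal sums the sign changed for KMT2A in DSF + NSM (-0.23) and against DSF (-0.48), MLLT4 against DSF (-0.053) and NSM (-0.40), ASH2L in NSM (-0.14), RBBP5 in DSF (-0.021), DSF + NSM (-0.78) and against NSM (-0.48), DOT1L in DSF + NSM (-0.71) and for NSM against DSF (-0.081), KMT2D against DSF (-0.069) and NSM (-0.32), and NCOA6 in DSF + NSM (-0.047). This follows from the shift of the median gene under that scaling. With library weights it changed for the interaction of MLLT4 (0.14) and RBBP5 (0.16) and for ASH2L in NSM against DSF (0.045). RBBP5 in DSF + NSM was -0.017 and -0.022 under the other rescalings, and without the B cell marker libraries it was 0.061 in NSM, -0.030 in DSF + NSM and -0.091 between them. Over single libraries left out, signs turned within -0.13 to 0.054 (MLLT4 interaction), -0.15 to 0.061 (RBBP5 in NSM), -0.055 to 0.045 (RBBP5 in DSF + NSM), -0.059 to 0.15 (RBBP5, DSF + NSM against NSM), -0.14 to 0.075 (RBBP5 interaction), -0.15 to 0.011 (DPY30, DSF + NSM against DSF), -0.017 to 0.13 (DOT1L in DSF + NSM) and -0.088 to 0.33 (DOT1L, NSM against DSF). The cause was not tested for the changes other than those at equal sums.

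Libraries with the same replicate number deviated together weakly or not at all (correlations -0.06 to 0.28 over 18 pairs, 2 above 0.1). The highest, 0.28, was that of NSM replicate 3 with DSF + NSM replicate 3. With different numbers, NSM replicate 3 and DSF + NSM replicate 2 gave -0.23, and NSM replicate 1 and DSF + NSM replicate 2 gave 0.24. These values do not settle whether the numbers pair the libraries. With a replicate block the count of calls was 0 for DSF and 3 for the interaction. Depth is known only as an estimate. In the simulation 37.1% of 1.5-fold changes were recovered and smaller ones were not simulated, so a gene without a call may still have changed.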
